A study of Homo sapiens with 18 samples.

Results

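The genes described here encode 9 enzymes that supply and balance the deoxynucleotides from which DNA is built. They are the ribonucleotide reductase subunits RRM1, RRM2 and RRM2B, thymidylate synthase TYMS, the nucleoside kinases TK1 and DCK, the nucleotide enzymes DUT and DTYMK, and the deoxynucleotide hydrolase SAMHD1. They were chosen by name for their enzymatic role, with earlier results of these data known. All 9 were found by their Ensembl identifiers among the 62703 genes of the files. All 9 passed the filter on low counts in every comparison.

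The libraries hold polyadenylated RNA of MDA-MB-231, a human triple-negative breast cancer line, in 5 groups of 2 libraries. In the knockdown experiment, cells were transduced with lentivirus for 24 h and kept in puromycin at 2 µg/ml for 72 h. They carried a control shRNA, shEZH2 or shE2F1, short hairpin RNAs directed at the transcripts of EZH2 and E2F1. The study lists a single hairpin sequence per target, so that other effects of a hairpin cannot be told apart from the loss of its target. In the drug experiment, cells without lentivirus or puromycin received the solvent DMSO or 1 µM GSK126, which blocks the histone methylation that EZH2 carries out, for 72 h. EZH2 is the catalytic subunit of the Polycomb complex PRC2, and E2F1 drives the transcription of genes for entry into S phase. The knockdown libraries came from transduced and selected populations of cells, and the labels do not say whether the replicates were separate cultures, so that p-values measure the spread between these libraries only.

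Ribonucleotide reductase converts ribonucleotides to deoxyribonucleotides and is a complex of the large subunit RRM1 with a small subunit, either RRM2, which is made mainly in S phase, or RRM2B, which p53 induces and which also serves resting cells. Thymidine nucleotides need further steps, because DUT turns dUTP into dUMP, TYMS methylates dUMP to dTMP, TK1 makes dTMP from thymidine taken up by the cell, and DTYMK converts dTMP to dTDP. DCK salvages deoxycytidine and purine deoxynucleosides, and SAMHD1 degrades deoxynucleotides, which keeps their pool low outside S phase. Several of these genes are textbook targets of E2F factors, and RRM2, TYMS and TK1 mark dividing cells in many tumors.

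Expression is given as CPM, the counts of a gene scaled to the total of its library, with TMM factors over all 10 libraries, for comparisons of a gene between libraries. TPM, which is also scaled by transcript length, is given for comparisons between genes. Fold changes are log2 values from the quasi-likelihood test of edgeR with their standard errors (SE) and with p-values adjusted by Benjamini and Hochberg over all genes tested. A gene passed the test at an adjusted p under 0.01, and was called where it also changed by more than 2-fold. The library totals ran from 13198932 to 20055550 counts, and the lowest count of any of the 9 genes in any library was 215, for RRM2B. EZH2 had 52.7 and 44.8 CPM under shEZH2 where control shRNA gave 153 and 181 CPM, and E2F1 had 26.0 and 22.5 CPM under shE2F1 where control shRNA gave 143 and 138 CPM. E2F1 was itself called lower with shEZH2, at 62.5 and 32.3 CPM (-1.59 ± 0.23 SE, edgeR adjusted p = 0.000172), so that with shEZH2 the lower EZH2 and the lower E2F1 cannot be told apart, while EZH2 did not pass with shE2F1 (-0.37). Among markers of the line, VIM ran from 1185 to 2860 TPM and CD44 from 446 to 659 TPM, ESR1 and PGR did not exceed 0.17 TPM, and SPARC, which the marker list used here gave as high in this line, was low, at most 4.26 TPM. ERBB2 did not exceed 35.6 TPM. Of the epithelial markers, the keratins KRT18 and KRT8 were at least 922 and 1126 TPM in every library. EPCAM ran from only 12.4 to 37.7 TPM and CDH1 from 0.26 to 4.5 TPM. The leukocyte marker CD3E was at 0.

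The promoters were taken from RefSeq (GRCh38.p14), as 250 bases before and 50 after each start site, and 13 promoters matched 8 of the 9 genes. The stretches below show 2 of the words searched, CCAAT and the E2F words, with the word in capitals and each stretch read 5′ to 3′ on the strand of its gene. CCAAT, the word bound by the factor NF-Y, was searched on both strands and stood in 34.6% of 35116 promoters. It occurred in 6 of the 13 promoters, which belong to 5 of the genes, and 3 copies lay in the second promoter of RRM2, at 123, 93 and 66 bases before the start site and each inside a like stretch.
RRM2, chr2:10122604-10122633, plus strand: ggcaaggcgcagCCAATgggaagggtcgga
RRM2, chr2:10122634-10122663, plus strand: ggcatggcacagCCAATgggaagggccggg
RRM2, chr2:10122661-10122690, plus strand: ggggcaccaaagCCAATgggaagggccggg
The first promoter of TK1 held 2 copies in the reverse orientation, 77 and 46 bases before the start, and its second promoter held no copy.
TK1, chr17:78187112-78187141, minus strand: ggccgggcgctgATTGGccccatggcggcg
TK1, chr17:78187081-78187110, minus strand: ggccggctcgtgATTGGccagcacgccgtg
RRM1 and SAMHD1 are shown for comparison. RRM1 was lower by less than 2-fold with shEZH2, and SAMHD1 did not pass in any main comparison. Between shEZH2 and shE2F1, SAMHD1 passed in some alternative fits only.
RRM1, chr11:4094645-4094674, plus strand: gcatgtccatatCCAATggggcccatggga
SAMHD1, chr20:36951740-36951769, minus strand: ctgcgcaggaggCCAATaggctgCCAATac

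The E2F words TTTCCCGC, TTTCGCGC, TTTGCCGC and TTTGGCGC, searched on both strands, stood in 3.31% of the same promoters and in 3 of the 13, those of TYMS, DUT and DCK. TYMS had 1 such word, 39 bases before its start, and the fourth promoter of DUT had 2, at 42 and 27 bases before its start. In DCK the word lay 21 bases after the start.
TYMS, chr18:657603-657632, plus strand: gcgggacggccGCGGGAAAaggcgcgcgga
DUT, chr15:48332152-48332181, plus strand: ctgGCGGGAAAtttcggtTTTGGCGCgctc
No match of these letters to the E2F words was present in the windows of RRM2, TK1, RRM1, DTYMK or SAMHD1. A word in a window is a description and not a binding site, and its absence does not show that binding is absent. By chromatin immunoprecipitation, the study reported E2F1 together with EZH2 at the promoter region of RRM2. The word TTTGAA, known as CHR, was present in 15.2% of all promoters and in 2 of the 13, those of RRM1 and DUT.

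The first question was how the supply genes differed between cells with shEZH2 and with control shRNA. TK1, RRM2, TYMS and DUT were lower by more than 2-fold with shEZH2, RRM1 was lower by less, and RRM2B, DCK, DTYMK and SAMHD1 did not pass. In all, 5 of 9 genes passed, each lower, where 41.7% of the 15373 genes tested passed in either direction, 21.5% as lower and 20.2% as higher. Of the 9 genes, 4 were called, all lower, against 10.7% of all genes called lower. The median log2 change of the 9 was -0.53, beside -0.02 for all genes tested. In bulk RNA, a smaller share of cells in S phase and less transcript per cell cannot be told apart.

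Within the reductase, the small subunit RRM2 had the largest change. RRM2 (ENSG00000171848, GRCh38 chromosome 2, 10120698 to 10211725) was at 366 and 429 CPM with control shRNA and at 161 and 88.0 CPM with shEZH2. The groups were far apart, and the 2 shEZH2 libraries also differed between themselves. The change was -1.69 ± 0.22 (SE), a 3.22-fold lower level with an edgeR adjusted p of 0.00011. The large subunit RRM1 (ENSG00000167325, chromosome 11, 4094707 to 4138932) was at 253 and 284 CPM with control shRNA and at 201 and 173 CPM with shEZH2. Its decrease was smaller, at -0.53 ± 0.10 (SE, edgeR adjusted p = 0.00122), and without shEZH2 replicate 2 it was -0.41 and no longer passed (edgeR adjusted p of 0.0166). The alternative small subunit RRM2B (ENSG00000048392, chromosome 8, 102204502 to 102238961) was at 16.4 and 16.1 CPM against 16.2 and 15.2 CPM. Its libraries overlapped between the groups, and its change of -0.06 had a 95% interval from -0.35 to 0.23.

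Of the thymidylate genes, TK1, TYMS and DUT were called. TK1 (ENSG00000167900, chromosome 17, 78174091 to 78187233), the kinase that salvages thymidine, was at 234 CPM in both control libraries and at 60.1 and 40.5 CPM with shEZH2. Its change of -2.24 ± 0.15 (SE) was the largest among the 9 genes, a 4.71-fold lower level with an edgeR adjusted p of 2.51e-06. TYMS (ENSG00000176890, chromosome 18, 657653 to 673578) stood at 320 and 374 CPM with control shRNA and at 152 and 111 CPM with shEZH2. Both routes to dTMP, synthesis through TYMS and salvage through TK1, were thus lower at the level of RNA. The change of TYMS was -1.41 ± 0.14 (SE, edgeR adjusted p = 1.81e-05).

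DUT (ENSG00000128951, chromosome 15, 48331011 to 48343373), which makes the substrate of TYMS, was at 90.9 and 107.9 CPM with control shRNA and at 54.1 and 43.4 CPM with shEZH2. Its change was -1.04 ± 0.13 (SE, edgeR adjusted p = 5.89e-05), and lay close to the 2-fold limit. Its call was lost, at -0.91 and -0.87, without control shRNA replicate 2 and without shEZH2 replicate 2 respectively, although it still passed. DTYMK (ENSG00000168393, chromosome 2, 241675747 to 241686944), the next kinase in the path, was at 83.2 and 74.5 CPM against 55.8 and 70.2 CPM. Its change of -0.33 ± 0.12 (SE) did not pass, with an edgeR adjusted p of 0.0326, and it became 0.12 when GC content and length were corrected for, so that no direction is given for it.

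DCK (ENSG00000156136, chromosome 4, 70992538 to 71030914) was the one gene of the 9 with a higher mean in shEZH2, at 45.7 and 51.7 CPM against 34.2 and 39.8 CPM. The groups did not overlap, but the change of 0.39 ± 0.11 (SE) missed the threshold with an edgeR adjusted p of 0.0137. SAMHD1 (ENSG00000101347, chromosome 20, 36890229 to 36951893) was at 88.7 and 79.2 CPM with shEZH2 and at 89.4 and 98.4 CPM with control shRNA. Its change of -0.18 had an edgeR adjusted p of 0.172. Both libraries of 1 group lay on 1 side of both libraries of the other for 8 of the 9 genes, where 77.6% of all genes tested did so.

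**Figure D1:**
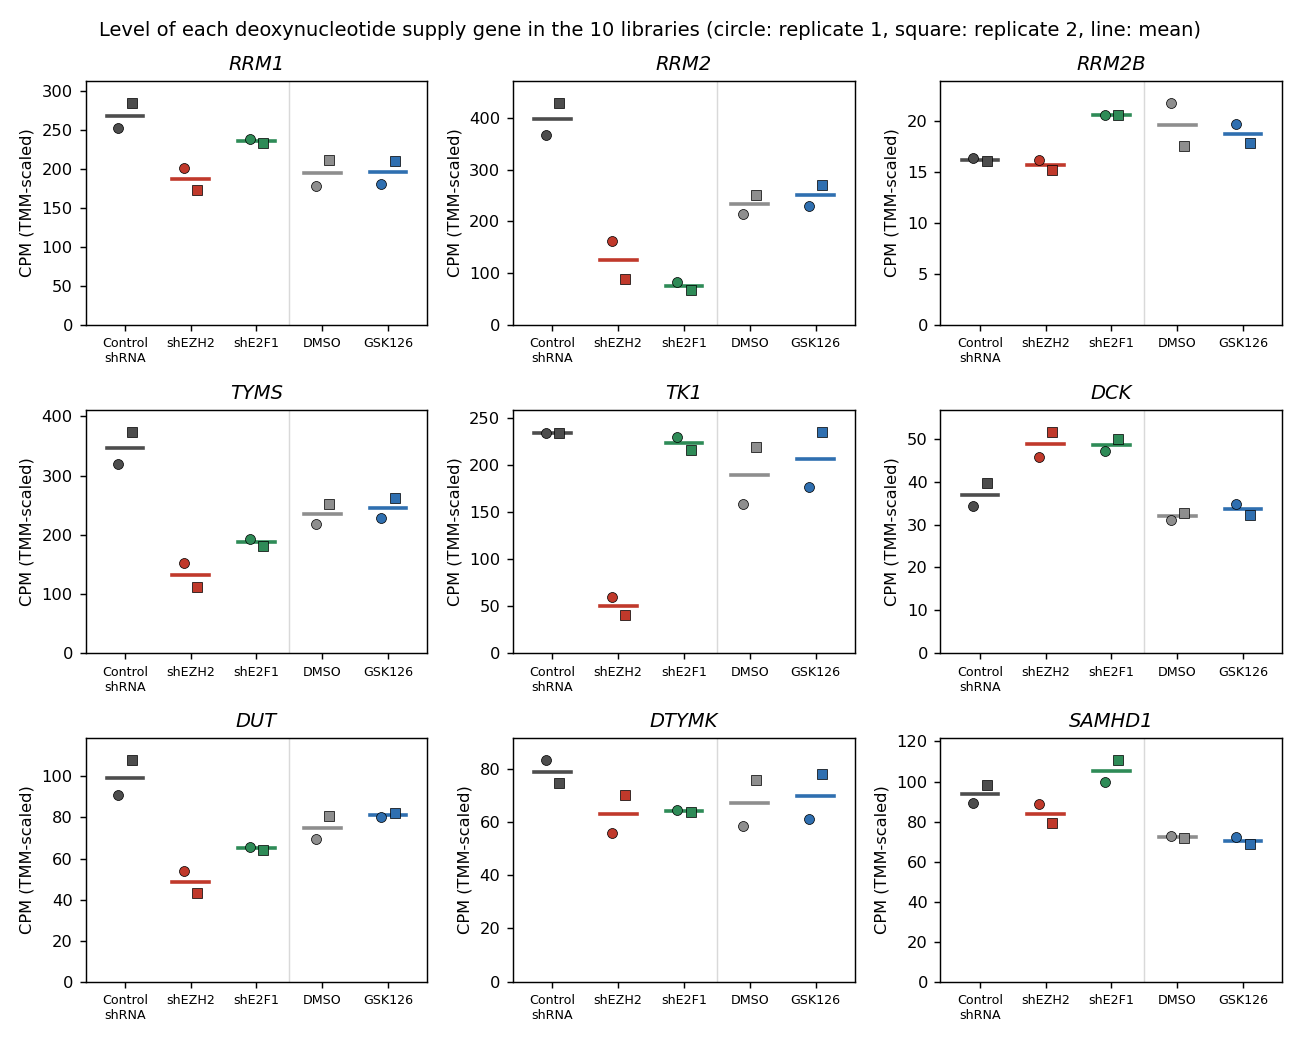
Level of each of the 9 genes in CPM (TMM-scaled, vertical axis from 0) in the 10 libraries, by group on the horizontal axis, with circles for replicate 1, squares for replicate 2 and lines for group means. RRM2 is low with both hairpins, TK1 is low in the 2 shEZH2 libraries (60.1 and 40.5 CPM) and near the control in the 2 shE2F1 libraries (230 and 216 CPM), and the DMSO and GSK126 libraries overlap for every gene.

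The same genes were then compared between shE2F1 and control shRNA, with the control libraries shared by both comparisons. RRM2, TYMS and DUT passed, each lower, and the other 6 genes did not pass. This was 3 of 9 genes, where 30.1% of the 15373 genes tested passed in either direction, 16.5% as lower and 13.6% as higher. RRM2 was the only one of the 9 called, against 5.96% of all genes called lower. The median change of the 9 was -0.19, beside -0.00 for all genes.

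RRM2 was at 82.2 and 66.9 CPM with shE2F1, below every other library. Its change of -2.42 ± 0.23 (SE) was a 5.36-fold lower level, with an edgeR adjusted p of 1.86e-05. RRM1 was at 239 and 233 CPM, just under both control libraries, and its change of -0.19 had an edgeR adjusted p of 0.143. RRM2B was at 20.6 CPM in both shE2F1 libraries, above both controls, and its change of 0.34 ± 0.13 (SE) did not pass (edgeR adjusted p of 0.0496).

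TYMS was at 193 and 182 CPM with shE2F1, between the control and the shEZH2 libraries, a change of -0.90 ± 0.14 (SE, edgeR adjusted p = 0.000425). DUT was at 65.5 and 64.2 CPM and changed by -0.62 ± 0.12 (SE, edgeR adjusted p = 0.00208). These 2 decreases depended on single libraries more than that of RRM2. Without shE2F1 replicate 2 the changes of TYMS and DUT, -0.85 and -0.61, did not pass (edgeR adjusted p of 0.0101 and 0.0291), and DUT also failed without shE2F1 replicate 1 (0.0232) and without control shRNA replicate 2 (0.0151).

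TK1 was at 230 and 216 CPM with shE2F1, next to 234 CPM in the controls. Its change was -0.08 with a 95% interval from -0.39 to 0.24, which excludes a fall of the size measured with shEZH2. DCK was at 47.1 and 49.9 CPM, a change of 0.38 ± 0.11 (SE, edgeR adjusted p = 0.0175), close to its value with shEZH2 and likewise not passing. Both values of DCK lay near the threshold, and passed where only genes averaging 50 counts or more were tested (edgeR adjusted p = 0.00959 with shEZH2 and 0.00832 with shE2F1). DTYMK, at 64.7 and 63.9 CPM, had a log2 difference of -0.30 (edgeR adjusted p of 0.0556), and SAMHD1, at 99.8 and 111 CPM, of 0.16 (edgeR adjusted p of 0.238). For all 9 genes the groups did not overlap, as for 74.3% of all genes tested.

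**Figure D2:**
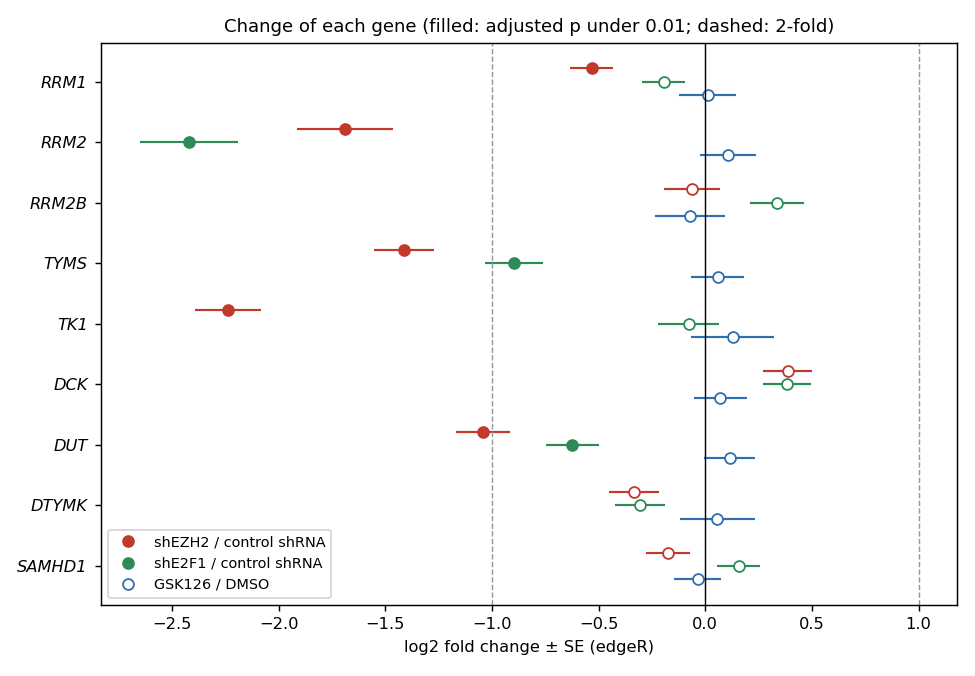
Log2 fold change of each gene (horizontal axis, with SE as bars) for shEZH2 and shE2F1 against control shRNA and for GSK126 against DMSO, with filled points at an adjusted p under 0.01 and dashed lines at 2-fold. TK1 lies at -2.24 with shEZH2 and -0.08 with shE2F1, RRM2 lies at -1.69 and -2.42, and all 9 GSK126 points lie between -0.07 and 0.13.

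The hairpins were compared directly, shEZH2 against shE2F1, in which 46.4% of all genes passed. Of the 9 genes, 2 passed and both were lower with shEZH2, where 23.2% of all genes passed as lower and 23.3% as higher. TK1 differed by -2.16 ± 0.15 (SE), a 4.47-fold lower level with shEZH2 at an edgeR adjusted p of 1.21e-06, and was the only one called, against 12.9% of all genes called lower and 10.4% called higher. TYMS differed by -0.51 ± 0.14 (SE, edgeR adjusted p = 0.00834), and did not pass without shEZH2 replicate 2 (-0.30, edgeR adjusted p of 0.0773), without shE2F1 replicate 1 (0.0638) or without shE2F1 replicate 2 (0.0334). It also did not pass with the GC content and length correction, at -0.27 (edgeR adjusted p = 0.097), with the effective length offset (0.0211) or in a fit of all 10 libraries (0.0112). That correction took the difference of TK1 to -1.53, still called.

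RRM2 differed the other way, being 0.73 ± 0.22 (SE) higher with shEZH2 than with shE2F1, but did not pass (edgeR adjusted p of 0.016). Without a filter on low counts it passed, at 0.70 ± 0.10 (SE, edgeR adjusted p of 6.42e-11). The value of 0.73 depended on which shEZH2 library was used. It was 1.12 and called without shEZH2 replicate 2 (edgeR adjusted p of 9.86e-05), and 0.24 without shEZH2 replicate 1. DUT, RRM2B, RRM1 and SAMHD1 differed by -0.42, -0.40, -0.34 and -0.33. They did not pass (edgeR adjusted p of 0.0143, 0.0193, 0.0148 and 0.0165). Without a filter on low counts, DUT, RRM1 and SAMHD1 passed as lower with shEZH2 (edgeR adjusted p of 0.000441, 0.000758 and 0.00369). With the GC content and length correction RRM2B and SAMHD1 passed, at -0.62 and -0.50 (edgeR adjusted p of 0.00128 and 0.00116). Between shEZH2 and shE2F1, the groups overlapped for DCK and DTYMK and were apart for the other 7 genes, as for 82.5% of all genes tested.

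Inhibition of the methyltransferase gave no such differences. With GSK126, 0 of 9 genes passed, where 0% of the 14632 genes tested passed in edgeR and 577 had an unadjusted p under 0.05, and the adjusted p of each of the 9 was 1. In DESeq2 13 genes passed over the whole table, none of them among the 9. The groups overlapped for all 9 genes, while they were apart for 28.4% of all genes tested.

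RRM2 was at 215 and 251 CPM with DMSO and at 230 and 271 CPM with GSK126, a change of 0.11 with a 95% interval from -0.21 to 0.42. TK1 was at 159 and 219 CPM with DMSO and at 177 and 236 CPM with GSK126, a change of 0.13 with an interval from -0.34 to 0.60. TYMS was at 218 and 252 CPM with DMSO and at 228 and 262 CPM with GSK126, a change of 0.06 with an interval from -0.24 to 0.36. The spread inside each group was wider than the distance between the groups. For DUT, at 69.4 and 80.5 CPM with DMSO and 80.1 and 82.3 CPM with GSK126, the change was 0.12 with an interval from -0.17 to 0.40. The lower bounds of these 4 intervals all lay above a 2-fold fall. The log2 differences of RRM1, RRM2B, DCK, DTYMK and SAMHD1 lay between -0.07 and 0.07.

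For TK1, DTYMK, RRM1, RRM2 and TYMS, the drug libraries differed more by replicate number than by treatment. TK1 was 0.46 higher on the log2 scale in replicate 2 than in replicate 1 with DMSO and 0.41 higher with GSK126. DTYMK was 0.37 and 0.36 higher in the same way, RRM1 0.25 and 0.21, RRM2 0.22 and 0.24, and TYMS 0.21 and 0.20. RRM2B went the other way, with replicate 2 minus replicate 1 at -0.31 with DMSO and -0.14 with GSK126. Within a replicate number, GSK126 minus DMSO was 0.16 and 0.10 for TK1 and 0.10 and 0.11 for RRM2. The labels do not say what a replicate number shared.

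The effect of shEZH2 was set against the effect of GSK126 in a fit of all 10 libraries, in which the difference itself was tested. The 2 experiments differed in lentivirus, puromycin and solvent, which cannot be told apart from the kind of EZH2 loss in this difference. RRM2, TYMS, TK1 and DUT passed and were called, all lower with the hairpin, where 21% of the 15773 genes tested passed, 11.6% passed as lower and 8.67% were called lower. The difference was -2.35 ± 0.27 (SE) for TK1 with an edgeR adjusted p of 9.56e-05, and -1.78 ± 0.31 (SE) for RRM2 with an adjusted p of 0.00102. It was -1.46 ± 0.21 (SE) for TYMS (edgeR adjusted p of 0.000337) and -1.15 ± 0.19 (SE) for DUT (edgeR adjusted p of 0.00071). RRM1 differed by -0.53 and did not pass (edgeR adjusted p of 0.0331).

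The relative levels of the genes, in TPM, also differed between the groups. With control shRNA the order was led by TYMS at 339 TPM (mean of 2 libraries), followed by RRM2 at 281 TPM and TK1 at 265 TPM, whose libraries overlapped. DUT, RRM1 and DTYMK followed at 156, 132 and 127 TPM, of which the last pair overlapped. SAMHD1, DCK and RRM2B were much lower, at 30.8, 21.9 and 5.71 TPM. With shE2F1 the order was TK1 at 287 TPM, TYMS at 212 TPM, RRM1, DTYMK and DUT, with RRM2 in rank 6 at 56.2 TPM, and no neighbours overlapped. With shEZH2 TYMS led at 151 TPM and TK1 stood in rank 6 at 64.9 TPM, and each of the first 4 genes overlapped the next in the order. RRM2B was the lowest of the 9 in every group, from 5.71 to 7.84 TPM. Against control shRNA, the change in TPM lay above that in CPM by a median log2 of 0.18 (shEZH2) and 0.19 (shE2F1) over the genes tested. The TPM means therefore serve for the order of genes within a group, and not for the change of a gene between groups.

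Ratios inside a library do not depend on that scaling, but they do depend on the transcript lengths that enter TPM. The ratio of RRM2 to RRM2B was 49.3 and 49.1 with control shRNA, 18.6 and 8.30 with shEZH2, and 7.91 and 6.50 with shE2F1. With DMSO it was 19.2 and 30.3, and with GSK126 it was 20.5 and 31.1. In TPM, both hairpins thus lay under every library without them, though DMSO replicate 1 was close to shEZH2 replicate 1. In CPM the order of these 2 libraries was narrowly reversed. RRM2 and RRM2B were at 161 and 16.2 CPM in shEZH2 replicate 1, and at 215 and 21.8 CPM in DMSO replicate 1. RRM2 exceeded RRM1 by 2.30 and 1.98 times with control shRNA, and the ratio was 1.02 and 0.596 with shEZH2 and 0.447 and 0.398 with shE2F1. TYMS to TK1 was 1.19 and 1.37 with control shRNA, higher at 2.23 and 2.47 with shEZH2, and lower at 0.742 and 0.738 with shE2F1. These ratios were not tested.

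**Figure D3:**
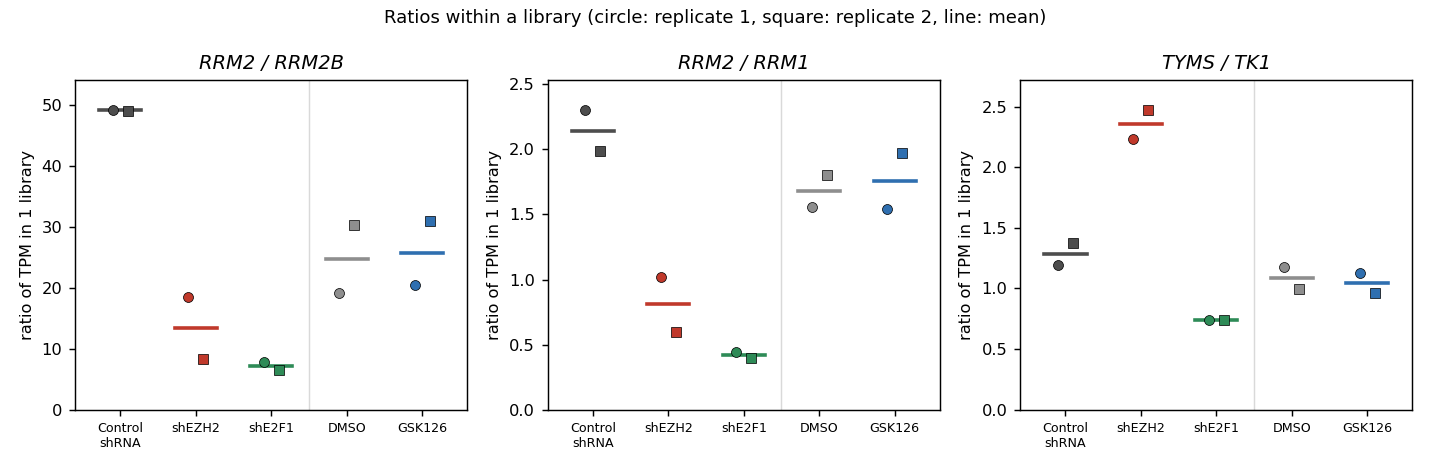
Ratios of TPM inside each library (vertical axes from 0) for RRM2 to RRM2B, RRM2 to RRM1 and TYMS to TK1, by group, with circles for replicate 1, squares for replicate 2 and lines for group means. The ratio of TYMS to TK1 is above 2 in both shEZH2 libraries and under 1 in both shE2F1 libraries, and RRM2 to RRM2B is 49.3 and 49.1 with control shRNA and 7.91 and 6.50 with shE2F1.

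Across the 10 libraries the genes varied to different degrees. The highest level exceeded the lowest 6.40-fold for RRM2, 5.82-fold for TK1, 3.36-fold for TYMS and 2.49-fold for DUT, and 1.43-fold to 1.66-fold for the other 5. The pair most alike was TYMS and DUT, with a Pearson correlation of log2 CPM of 0.99 over the 10 libraries. TYMS correlated at 0.81 with RRM2 and at 0.82 with TK1, while RRM2 and TK1 correlated at 0.38 only. RRM2 and DCK ran against each other, at -0.78. These values describe 5 groups of libraries from 2 experiments. They hold differences between the experiments as well as those between groups. The mean of RRM2 was 398 CPM with control shRNA and 233 CPM with DMSO, and that of SAMHD1 was 93.9 and 72.2 CPM. Among 9505 genes with a mean of at least 200 counts, the 5 whose pattern was most like that of RRM2 included E2F1 at 0.99, and TAF9B, AXL and ESYT1 at 0.98 to 0.99. E2F1 is itself the target of shE2F1 and was called lower with both hairpins, as RRM2 was. A link between E2F1 and RRM2 was therefore not tested by this correlation. For SAMHD1 they were ZNF367, HNRNPUL2, C2CD3, KIF1C and BUB3, at 0.96 to 0.98.

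Genes around the supply enzymes were counted in lists chosen by pathway, to be read against all genes tested, of which 21.5% passed as lower and 20.2% as higher with shEZH2, and 16.5% and 13.6% with shE2F1. Of 6 genes of the thymidylate and folate cycle, which provides the methyl group used by TYMS, 5 passed as lower with shEZH2 and 2 with shE2F1, and none passed as higher, with median changes of -1.02 and -0.38. The mitochondrial enzymes SHMT2 and MTHFD1L were called with both hairpins, at -1.11 and -1.06 with shEZH2 and -1.27 and -1.28 with shE2F1.

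Both equilibrative nucleoside carriers in the list, SLC29A1 and SLC29A2, passed as lower with each hairpin. SLC29A1 changed by -1.44 with shEZH2 and -0.76 with shE2F1, and SLC29A2 by -2.10 and -1.72, from 15.8 and 10.6 CPM with control shRNA to 4.22 and 2.13 CPM and to 4.17 and 3.88 CPM. Of 12 other kinases and deaminases of nucleosides and nucleotides, 3 passed as higher and 1 as lower with shEZH2, and 1 as higher and 2 as lower with shE2F1, near or under the shares over all genes. The one that was lower with shEZH2 was DGUOK, the mitochondrial deoxyguanosine kinase, at -1.21 with shEZH2 and 0.09, not passing, with shE2F1.

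Of 11 genes of breakdown and pool cleaning, 3 passed as lower and 3 as higher with shEZH2, and 2 and 3 with shE2F1. The 3 that were lower with shEZH2 were called, namely ADA (adenosine deaminase) at -2.22, TYMP (thymidine phosphorylase) at -2.20 and NT5C (a deoxynucleotidase) at -1.72, although ADA and TYMP were rare transcripts, at 3.18 to 4.45 CPM with control shRNA. NT5C also passed with shE2F1, at -0.84. NUDT1, which removes oxidized purine nucleotides, was at -0.26 and 0.81, of which the second passed, with a called difference of -1.06.

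In the synthesis of the ribonucleotides that feed the reductase, 2 of 5 pyrimidine genes and 8 of 10 purine genes passed as lower with shEZH2, and 0 and 5 did with shE2F1. CAD, which carries out the first steps of pyrimidine synthesis, fell from 229 and 242 CPM with control shRNA to 77.4 and 45.7 CPM with shEZH2 and was at 149 and 154 CPM with shE2F1, where its change of -0.64 did not pass. DHODH was called with shEZH2 at -1.05. Among purine genes IMPDH2 was called with shEZH2, at -1.41, and PAICS, PFAS and GART with shE2F1, at -1.44, -1.01 and -1.01.

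Of 6 regulators of the supply enzymes, 4 passed as lower with each hairpin. CCNF, which directs the degradation of RRM2 protein, was at 65.9 and 79.2 CPM with control shRNA, 70.5 and 74.8 CPM with shEZH2, and 23.3 and 26.4 CPM with shE2F1. It was called with shE2F1 at -1.55, stood at -0.01 with shEZH2, and differed between the hairpins by 1.54, also called. CDK2 was called with shEZH2, at -1.10. Protein was not measured in these libraries.

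Other genes expressed in S phase were counted in the same way. Of 40 S phase genes that are not among the 9, 22 passed as lower and 1 as higher with shEZH2, with a median of -0.52. These counts stand beside 21.5% of all genes passing as lower and 20.2% as higher. With shE2F1 7 passed as lower and 1 as higher, with a median of 0.04, and 16.5% of all genes passed as lower and 13.6% as higher, so that the count of lower genes was near the share over all genes. With GSK126 none of these lists had a gene that passed. The part of the share of cells in S phase in the changes of the 9 genes was not tested.

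**Figure D4:**
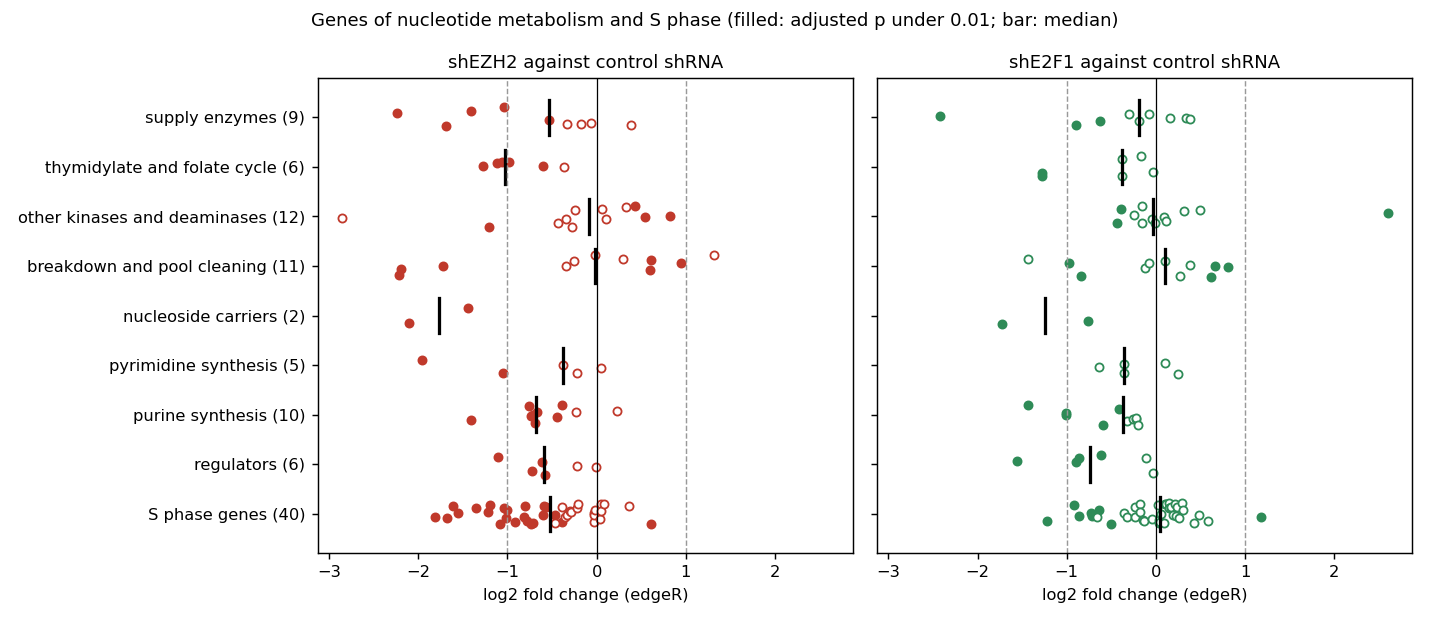
Log2 fold change (horizontal axis) of each gene in the lists named at the left, with the number of genes tested, for shEZH2 (left panel) and shE2F1 (right panel) against control shRNA, with filled points at an adjusted p under 0.01 and black bars at list medians. The medians with shEZH2 are -1.02 for the folate cycle and -0.52 for S phase genes, and with shE2F1 they are -0.38 and 0.04.

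The reads behind these values were assigned almost without sharing. The TYMS gene overlaps ENOSF1 on the opposite strand, and 37.6% of its 50-base stretches occur antisense in another gene, but the library kit kept the strand and RSEM gave TYMS whole counts with a posterior SD of 0 in all 10 libraries. ENOSF1 passed as lower with shEZH2, at -0.80, and not with shE2F1, at -0.46. DCK shares 199 exon bases and 4.70% of its 50-base stretches with MOB1B on the same strand, which passed as higher with shEZH2, at 0.80, and not with shE2F1, at -0.18. The posterior SD of any of the 9 counts was at most 0.066% of the count.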

How the data were processed

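The 18 records held 10 distinct libraries, since 8 were exact repeats, and groups came from the labels. The authors mapped reads to hg38 (GRCh38, an Ensembl annotation) with STAR and estimated abundance with RSEM (2.7.2b and 1.3.1 per the submitters' processing notes). The deposited expected counts were rounded for all tests. The deposited TPM were used for levels between genes and for ratios, and the deposited effective length (a score in bases) and posterior SD of the count for an alternative and a check of shared reads. Symbols and coordinates came from GENCODE 44, which held 99.9% of the identifiers.

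The analysis used R 4.3.3 and edgeR 4.0.16, with filterByExpr, TMM and quasi-likelihood tests whose p-values were adjusted over all genes by Benjamini-Hochberg. The 6 knockdown libraries were fitted together, the 4 drug libraries apart, and the difference of effects in all 10. The study used DESeq2, run here as an alternative (1.42.0). The thresholds are those of the study. The scripts were tested on simulated data. At this depth, 3 counts, the most that a count of 0 allows, correspond to 0.150 to 0.227 CPM, which covers counting error alone. The 9 genes, the lists and the tests were chosen with earlier results of these data known. All 9 genes are named, as well as, in each list, up to 3 called genes per direction and comparison with the largest change and a mean of at least 50 counts, and the 5 genes most like RRM2 and SAMHD1. Some genes that this rule selected are not reported here. The alternatives were other scalings, filters, thresholds and fits, corrections for effective length or for GC content and length (splines with 5 degrees of freedom), the replicate number as a block, and leaving out each library in turn.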

Additional observations from a re-analysis of the deposited data

Results flagged for a closer look

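Some effects differed by a test of the difference itself. Between the hairpins, shEZH2 against shE2F1, the difference was -2.16 for TK1 and -0.51 for TYMS on the log2 scale, with edgeR adjusted p of 1.21e-06 and 0.00834. The value of TYMS passed in 10 of 17 alternatives, and that of TK1 in all 17. Between the effect of shEZH2 and the effect of GSK126 it was -2.35 for TK1, -1.78 for RRM2, -1.46 for TYMS and -1.15 for DUT, with edgeR adjusted p of 9.56e-05, 0.00102, 0.000337 and 0.00071. Groups of 2 libraries are too small for a test of a library that stands apart.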

How the results depend on the processing

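TK1, RRM2, TYMS and DUT passed as lower with shEZH2 in all 17 alternatives, RRM2 passed as lower with shE2F1 in all 17, and the difference between shEZH2 and GSK126 passed for these 4 genes in all 19. The correction for GC content and length moved TK1 to -1.70 with shEZH2 and, between the hairpins, to -1.53. With shE2F1, 5 of the 9 genes passed at an adjusted p under 0.05, and 2 were called with the GC content and length correction, alone or with the replicate block. Leaving out 1 library gave 1 to 3 genes that passed and 1 to 2 that were called. For shEZH2 against shE2F1, the count that passed was 7 at an adjusted p under 0.05, 6 without a filter on low counts, 5 with a mean of at least 50 counts, 1 with the effective length offset, 4 with the correction for GC content and length, alone or with the block, TYMS not among them, 5 in the 4 libraries alone and 1 in all 10. Without 1 library it was 1 to 4, with 1 to 2 called.

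Signs changed only for values that had not passed. With shEZH2, RRM2B became 0.063 with the effective length offset and ran from -0.11 to 0.0013 without 1 library, and DTYMK became 0.12 with the correction for GC content and length and 0.11 with the block added. Between the hairpins DTYMK became 0.0080 with the effective length offset, 0.54 with that correction (edgeR adjusted p = 0.00174, which passed as higher) and 0.53 with the block added, and ran from -0.20 to 0.13 without 1 library. DCK became -0.025 without a filter, -0.030 with a mean of at least 50 counts, -0.00042 with the replicate block, -0.013 with the correction, -0.016 with the correction and block, -0.0034 in the 4 libraries alone, and -0.079 to 0.090 without 1 library. With GSK126, RRM1 became -0.00037 in DESeq2, -0.0040 without a filter and -0.018 with the correction, alone or with the block, and RRM2B 0.025 with the effective length offset. Without 1 library, GSK126 gave -0.10 to 0.13 for RRM1, -0.012 to 0.22 for RRM2, -0.22 to 0.11 for RRM2B, -0.037 to 0.16 for TYMS, -0.086 to 0.37 for TK1, -0.13 to 0.25 for DTYMK and -0.071 to 0.0064 for SAMHD1. In the difference between shEZH2 and GSK126, RRM2B became -0.24 and DTYMK 0.079 with the correction, and -0.23 and 0.071 with the block added, and RRM2B ran from -0.15 to 0.16 without 1 library. The causes of these shifts were not tested. DTYMK passed as lower with shE2F1 under the correction, at -0.42 (edgeR adjusted p = 0.00986).

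The replicate numbers are shared by the labels only. Differences between replicates 1 and 2 correlated at 0.33 between DMSO and GSK126 over 15773 genes and at 0.02 to 0.10 among the knockdown groups. With the replicate number as a block, 1164 genes passed and 68 were called with GSK126, against 0 without it, and 0 of the 9 genes passed. Over all alternatives with GSK126, the edgeR adjusted p went down to 0.0103 for TK1, close to the threshold, and to 0.0337 for RRM2. In the difference between shEZH2 and GSK126, 5177 genes passed with the block against 3308 without it, and RRM1 passed with it at -0.53 (edgeR adjusted p = 0.00617). DCK passed with the block with both hairpins (edgeR adjusted p = 0.008 and 0.00979), and also without a filter with shE2F1 (0.00653) and without control shRNA replicate 2 with shEZH2 (0.00743), and RRM2 passed between the hairpins at 0.71 (edgeR adjusted p = 0.00959). With 2 libraries in a group, a library left out leaves the other alone, which is assumed to vary like the rest.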
